A study of Homo sapiens with 4 samples.

Results

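The genes described here encode the protein-folding and quality-control machinery of the endoplasmic reticulum (ER), here in the human pancreatic neuroendocrine tumour line QGP-1. They were taken by gene symbol from a list of 36 ER chaperones, disulfide enzymes, genes of ER-associated degradation (ERAD), translocon subunits and the sensor gene ERN1. All 36 were measured, by 51 of the 25893 probes with a gene symbol, among 19090 genes in all. QGP-1 cells were kept for 24 h in RPMI-1640 with 0.1% serum, either with medium conditioned by pancreatic stellate cells (PSC medium, 2 arrays) or without it (mock, 2 arrays). The labels do not say how the mock medium was prepared, and stellate cell products and other differences between the media cannot be told apart. No genetic change or drug is named in the labels as applied to either group, both groups come from a single cell line, and nothing states that arrays within a group are different cultures. The spread behind each p-value is that of these 4 arrays and may be technical.

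Secreted and membrane proteins enter the ER through the SEC61 translocon and fold there with the help of the Hsp70 chaperone BiP, the Hsp90 paralog GRP94 and the lectin chaperones calnexin and calreticulin. Protein disulfide isomerases make and reshuffle disulfide bonds and are reoxidised by the ERO1 oxidases, and proteins that fail to fold are trimmed, recognised and passed back to the cytosol for degradation. When unfolded proteins accumulate, the sensors IRE1 (encoded by ERN1), ATF6 and PERK start the unfolded protein response, in which the transcription factors ATF6 and XBP1 bind ER stress elements in the promoters of these genes. Endocrine cells carry a large secretory load, which makes this machinery prominent in them.

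Summed intensity ranged from 161573995 to 167204563 on the PSC medium arrays and from 135782105 to 173359996 on the mock arrays. On the quantile-normalized log2 scale Pearson's r across genes, which are not independent replicates, was 0.988 within the PSC medium pair, 0.986 within the mock pair and 0.978 to 0.981 between groups. Of 6 neuroendocrine marker genes measured, 5 lay above the median gene level, among them the somatostatin gene SST and the granin gene CHGA. The exception was the synaptophysin gene SYP. Of 10 stellate or fibroblast markers, COL1A1 lay above that level and the other 9 below it. The log2 of their summed intensity was 12.24 and 12.39 on the PSC medium arrays and 11.97 and 12.29 on the mock arrays, and 0 of the 10 passed the test. The lowest of them were COL3A1 and POSTN, and none was at 0. Their part in the results below was not tested. These are bulk RNA values, in which a change in the number of expressing cells and a change in RNA per cell cannot be told apart.

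The promoters of these genes are known for the ER stress element, in which NF-Y binds one end and ATF6 or XBP1 the other. RefSeq promoter windows of build GRCh38.p14, from 250 bases before to 50 bases after each gene start, matched 33 of the 36 genes by symbol, without DERL1, DERL3 and PDIA3. Both strands were searched for ERSE (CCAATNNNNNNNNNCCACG), ERSE-II (ATTGGNCCACG), the shorter UPRE (TGACGTGG) and the ATF4-type element CARE (TGATGNAA). ERSE was found in 7 of the 33 genes (21.2%), against 0.0916% of 27305 genes with a window, and ERSE-II in 3 (9.09%), against 0.0696%. UPRE was found in 5 (15.2%), against 0.927%, and CARE in 1 (3.03%), against 4.46%. The windows of the 4 ERSE genes with the brightest probes are printed in the direction of transcription, with ERSE matches on either strand in capitals. CANX holds a match in the windows of 3 starts, of which 1 is shown.
CANX, chr5:179698679-179698978, plus strand: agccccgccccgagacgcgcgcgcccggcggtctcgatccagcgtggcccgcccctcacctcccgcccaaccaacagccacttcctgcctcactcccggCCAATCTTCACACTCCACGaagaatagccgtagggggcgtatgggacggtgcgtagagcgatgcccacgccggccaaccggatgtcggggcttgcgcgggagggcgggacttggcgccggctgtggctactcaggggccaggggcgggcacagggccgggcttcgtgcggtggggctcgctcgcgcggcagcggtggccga
CRELD2, chr22:49918384-49918683, plus strand: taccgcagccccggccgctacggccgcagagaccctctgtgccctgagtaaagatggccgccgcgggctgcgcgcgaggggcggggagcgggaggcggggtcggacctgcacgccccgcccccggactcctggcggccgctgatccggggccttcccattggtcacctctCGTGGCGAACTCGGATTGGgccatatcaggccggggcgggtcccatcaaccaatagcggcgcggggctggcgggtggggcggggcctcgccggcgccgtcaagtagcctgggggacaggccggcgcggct
HSP90B1, chr12:103930160-103930459, plus strand: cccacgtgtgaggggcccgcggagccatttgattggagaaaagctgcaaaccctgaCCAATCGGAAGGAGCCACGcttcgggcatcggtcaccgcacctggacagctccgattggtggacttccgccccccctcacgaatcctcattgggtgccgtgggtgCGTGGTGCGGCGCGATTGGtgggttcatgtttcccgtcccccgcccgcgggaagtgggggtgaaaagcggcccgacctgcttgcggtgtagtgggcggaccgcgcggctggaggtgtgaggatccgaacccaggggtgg
PDIA6, chr2:10812736-10813035, minus strand: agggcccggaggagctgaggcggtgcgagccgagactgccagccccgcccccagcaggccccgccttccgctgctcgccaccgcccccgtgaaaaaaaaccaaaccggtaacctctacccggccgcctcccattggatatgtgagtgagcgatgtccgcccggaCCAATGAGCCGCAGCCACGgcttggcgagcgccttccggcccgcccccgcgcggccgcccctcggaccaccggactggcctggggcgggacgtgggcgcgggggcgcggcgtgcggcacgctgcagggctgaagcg

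In the other ERSE genes, CALR, HSPA5 and ERO1B, and in the ERSE-II genes, HERPUD1, HYOU1 and SDF2L1, the element is shown with its flanks. Each is turned so that it reads as spelled above, the element is in capitals, and positions count from the gene start. In HYOU1 the distal ERSE-II shares bases with a UPRE match at -188 to -181. A match describes these letters and does not show that a factor binds there.
CALR from -225 to -207, element at chr19:12938384-12938402, minus strand: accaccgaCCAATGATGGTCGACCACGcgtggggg
HSPA5 from -66 to -48, element at chr9:125241391-125241409, minus strand: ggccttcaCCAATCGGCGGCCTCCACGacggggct
ERO1B from -243 to -225, element at chr1:236282183-236282201, plus strand: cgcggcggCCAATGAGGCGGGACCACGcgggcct
HERPUD1 from -117 to -107, element at chr16:56932025-56932035, plus strand: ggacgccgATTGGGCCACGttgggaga
HYOU1 from -185 to -175, element at chr11:119057380-119057390, plus strand: ggcctgggATTGGACCACGtcacgggg
HYOU1 from -79 to -69, element at chr11:119057274-119057284, plus strand: gcgtactcATTGGACCACGtcccaggc
SDF2L1 from -188 to -178, element at chr22:21642114-21642124, minus strand: gggttttgATTGGTCCACGcttccgag

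The comparison asks how expression of QGP-1 cells differs with stellate cell medium. Of the 36 genes, 0 were called higher and 0 lower, where 1.17% and 0.974% of all 19090 genes were called (limma, Benjamini-Hochberg adjusted p under 0.05). At an adjusted p under 0.1 the calls were 1 higher, the calreticulin gene CALR, and 1 lower, the oxidase gene ERO1B, with 3.62% and 4.48% of all genes. At an unadjusted p under 0.05, 6 were higher and 3 lower, where 9.84% and 12.7% of all genes passed. The genes did not share a direction: the log2 difference (PSC medium minus mock) was positive for 13 and negative for 23, with a median of -0.13, against -0.01 over all genes. Of all 19090 genes, 9205 had a positive and 9877 a negative difference.

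The differences were small as well as mixed. They ranged from -0.77 to 0.77 on the log2 scale, and 8 of 36 (22.2%) were at least 0.5 in size, against 21.3% of all genes. On the brightest probe of each gene, none of the 36 reached a size of 1, a 2-fold change, which 4.06% of all genes did. A dimmer SEC62 probe, described below, had -1.17. The 95% interval of the difference, not adjusted for the number of genes, lay wholly within 2-fold in either direction for 30 of the 36 (83.3%), against 78.5% of all genes. Both PSC medium arrays lay above both mock arrays for 10 genes and below both for 12, with 24.5% and 29.0% of all genes as background.

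**Figure D1:**
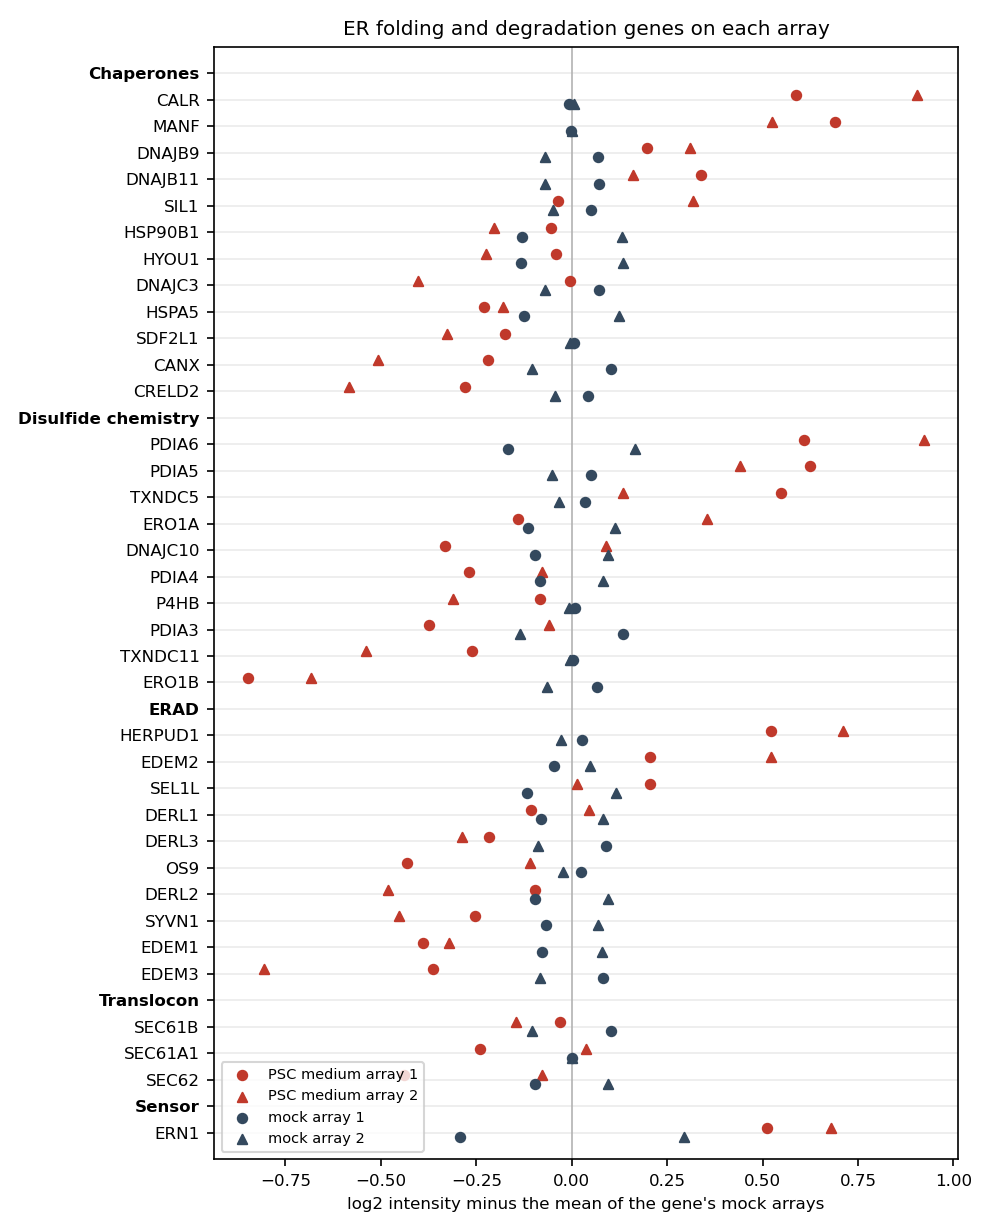
Log2 intensity of the 36 genes on each array, minus the mean of that gene's mock arrays, by role and in order of their difference. Red points are the PSC medium arrays and dark points the mock arrays; 10 genes have both red points right of both dark points, and 12 have them to the left.

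**Figure D2:**
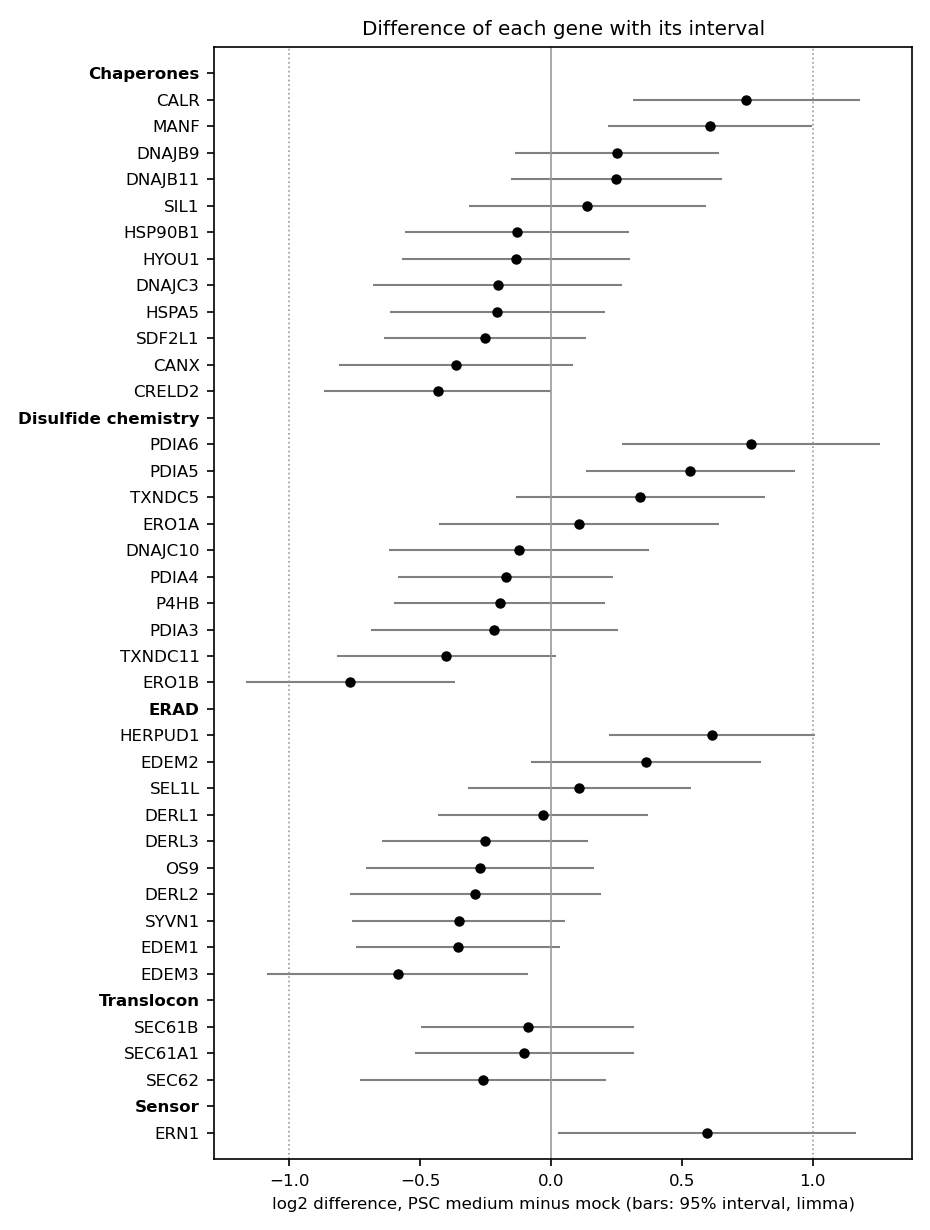
Log2 difference of each gene, PSC medium minus mock, with its 95% interval from limma (n = 2 arrays per group); dotted lines mark a 2-fold change in either direction. Points run from -0.77 (ERO1B) to 0.77 (PDIA6), and the intervals of 30 of the 36 genes stay between the dotted lines.

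Among the 12 chaperones and co-chaperones, 0 passed the test, 5 had a positive and 7 a negative difference, and the median was -0.13. HSPA5 encodes BiP, the most used marker of ER stress. Its log2 level was 11.11 and 11.16 on the PSC medium arrays, against 11.21 and 11.46 on the mock arrays. The arrays of the groups did not overlap, but the gap was narrower than the spread within the mock pair, and the difference was -0.21 ± 0.17 (SE; adjusted p = 0.521). Its 95% interval, from 1 probe and 2 arrays per group, was -0.62 to 0.21, with the upper bound at a 1.15-fold increase. The value rests on mock replicate 2: the difference was -0.081 without that array (adjusted p = 0.859) and -0.33 without mock replicate 1 (adjusted p = 0.496). HSP90B1, which encodes GRP94, had 14.50 and 14.36 with PSC medium, against 14.43 and 14.69 in mock. These groups overlapped, with a difference of -0.13 ± 0.17 (adjusted p = 0.714).

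The lectin chaperones, which bind glucosylated glycans of the same client proteins, had differences of opposite sign. CALR, the soluble calreticulin, had a log2 level of 13.27 and 13.59 with PSC medium, against 12.68 and 12.69 in mock. Both PSC medium arrays lay above the mock arrays by more than the spread within either pair, and the difference was 0.75 ± 0.18 (1.68-fold, adjusted p = 0.0877). CANX, the membrane-bound calnexin, had 17.63 and 17.34 with PSC medium, against 17.95 and 17.75 in mock. All PSC medium values were lower, by -0.36 ± 0.18 on average (adjusted p = 0.304).

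Among small ER stress proteins the picture was likewise split. MANF, a secreted and ER-retained protein that binds BiP, had 13.56 and 13.40 with PSC medium, against 12.87 and 12.88 in mock. Its mock arrays were nearly equal, and the difference was 0.61 ± 0.16 (1.52-fold, adjusted p = 0.102). CRELD2, an ER stress-induced protein of the ER lumen, had 14.48 and 14.18 with PSC medium, against 14.80 and 14.72 in mock. Here the PSC medium arrays were the lower ones (-0.43 ± 0.18, adjusted p = 0.222). SDF2L1, a partner of BiP and its co-chaperones, had 16.09 and 15.93 with PSC medium, against 16.27 and 16.26 in mock, a difference of -0.25 ± 0.16 (adjusted p = 0.402).

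The J-domain co-chaperones bring client proteins to BiP and start its ATPase cycle. DNAJB9 had a log2 level of 14.92 and 15.03 with PSC medium, against 14.79 and 14.65 in mock (0.25 ± 0.16, adjusted p = 0.403). DNAJB11 had a difference of 0.25 ± 0.16 and DNAJC3 of -0.20 ± 0.19. Groups were apart for DNAJB9 and DNAJB11 and overlapped for DNAJC3. The nucleotide exchange factors that release clients from BiP, HYOU1 and SIL1, overlapped between groups, with differences of -0.13 ± 0.18 and 0.14 ± 0.18.

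Of the 10 disulfide genes, 0 passed, 4 had a positive and 6 a negative difference, and the median was -0.15. The isomerase genes PDIA6 and PDIA5 were the highest. PDIA6 had 13.83 and 14.15 on the PSC medium arrays, against 13.06 and 13.39 on the mock arrays. The gap between the groups was wider than the spread within either pair, and the difference was 0.77 ± 0.20 (1.70-fold, adjusted p = 0.103). PDIA5 had 13.12 and 12.94 with PSC medium, against 12.55 and 12.45 in mock (0.53 ± 0.16, adjusted p = 0.135).

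ERO1B, an oxidase that regenerates disulfide isomerases and is enriched in pancreatic endocrine cells, was at the other end. Its log2 level was 11.10 and 11.26 with PSC medium, against 12.01 and 11.88 in mock. Both PSC medium values lay well below both mock values, and the difference was -0.77 ± 0.16 (1.70-fold lower, adjusted p = 0.0724, the smallest of the 36). Its paralog ERO1A, the broadly expressed and hypoxia-responsive oxidase, had 0.11 ± 0.22 with overlapping groups.

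The genes with the brightest probes in this group had small negative differences. P4HB, the archetypal protein disulfide isomerase, had 17.03 and 16.80 with PSC medium, against 17.12 and 17.10 in mock (-0.20 ± 0.16, adjusted p = 0.533). PDIA4 had 13.64 and 13.83 with PSC medium, against 13.82 and 13.99 in mock, with overlap (-0.17 ± 0.17, adjusted p = 0.596). The reductase gene DNAJC10, which opens disulfides of ERAD clients, had 14.28 and 14.70 with PSC medium, against 14.52 and 14.71 in mock (-0.12 ± 0.20, adjusted p = 0.768). PDIA3, the partner of calnexin and calreticulin, had -0.22 ± 0.19, and the thioredoxin-domain genes TXNDC5 and TXNDC11 had 0.34 ± 0.19 and -0.40 ± 0.17. TXNDC5 and TXNDC11 had groups apart, and PDIA3 did not.

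Of the 10 ERAD genes, 0 passed, 3 had a positive and 7 a negative difference, and the median was -0.26. HERPUD1, a stress-induced membrane protein that organises the HRD1 ligase complex, was the highest. It had 17.06 and 17.24 with PSC medium, against 16.56 and 16.51 in mock. The groups were apart by more than the spread within each, at 0.62 ± 0.16 (1.53-fold, adjusted p = 0.103). The core genes of that complex had differences of either sign. Its ligase gene SYVN1 had -0.35 ± 0.17 with groups apart, and its scaffold gene SEL1L had 0.11 ± 0.17 with overlap.

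The EDEM genes encode mannosidase-like proteins that mark misfolded glycoproteins, and their differences had either sign. EDEM3 had 13.14 and 12.70 with PSC medium, against 13.59 and 13.42 in mock (-0.59 ± 0.20, adjusted p = 0.169). EDEM1 had 11.39 and 11.46 with PSC medium, against 11.70 and 11.86 in mock (-0.36 ± 0.16, adjusted p = 0.255). EDEM2 had the opposite sign, 0.36 ± 0.18. All 3 had groups apart, as did 53.5% of all genes. OS9, a lectin that hands trimmed glycoproteins to the ligase, had 16.79 and 17.12 with PSC medium, against 17.25 and 17.20 in mock (-0.27 ± 0.18, adjusted p = 0.426). The derlin genes, whose products form part of the exit channel, had -0.03 ± 0.16 (DERL1), -0.29 ± 0.20 (DERL2) and -0.25 ± 0.16 (DERL3). The DERL2 probe was the dimmest used for the 36 genes, at percentile 13.7 of all gene levels.

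The 3 translocon genes all overlapped between groups, where 53.5% of all genes had groups apart. SEC61A1, the pore subunit, had 16.09 and 16.37 with PSC medium, against 16.33 on both mock arrays (-0.10 ± 0.17, adjusted p = 0.772). SEC61B, a small subunit beside the pore, had 16.84 and 16.72 with PSC medium, against 16.97 and 16.77 in mock (-0.09 ± 0.17, adjusted p = 0.797). SEC62, which helps post-translational entry, had 14.31 and 14.68 with PSC medium, against 14.66 and 14.85 in mock (-0.26 ± 0.19, adjusted p = 0.477). These differences, each from the brightest probe, lay within the spread of the arrays, and the further SEC62 probes are given below.

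ERN1, which encodes the sensor IRE1 that splices XBP1 mRNA, had 9.29 and 9.46 with PSC medium, against 8.49 and 9.07 in mock. The groups were apart, but the mock pair differed by nearly as much as the groups did (0.59 ± 0.23, adjusted p = 0.207).

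For 13 genes there was more than 1 probe, and 10 of their 15 further probes had the same sign as the brightest. Over all 51 probes, 0 passed when each was fitted on its own, where 0.687% of 25893 probes did. ERO1B was lower on both of its probes, at -0.77 and -0.94, with adjusted p of 0.0867 and 0.0727 in that fit. Its second probe was dim, at 5.88 and 5.61 with PSC medium, against 6.67 and 6.69 in mock. ERN1 was split, with -0.49 on its second probe (adjusted p = 0.169), and so was TXNDC11, with 0.63 on its second probe (adjusted p = 0.107). The sign of these 2 genes thus differs between probes, and the counts above use the brightest one. Of the other probes with the opposite sign, those of DNAJC3, SEL1L and DERL1 had 0.22, -0.20 and 0.003.

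The dimmest of 3 SEC62 probes had 11.61 and 11.27 with PSC medium, against 12.72 and 12.50 in mock, a difference of -1.17 (adjusted p = 0.066 in the fit of single probes). The other SEC62 probes had -0.26 and -0.01. Which transcripts each probe reads is not given in the sources used here. DNAJC10 had -0.63 on its second probe (adjusted p = 0.122) beside -0.12 on the brighter one, and DERL3 had -0.58 (adjusted p = 0.178) beside -0.25.

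**Figure D3:**
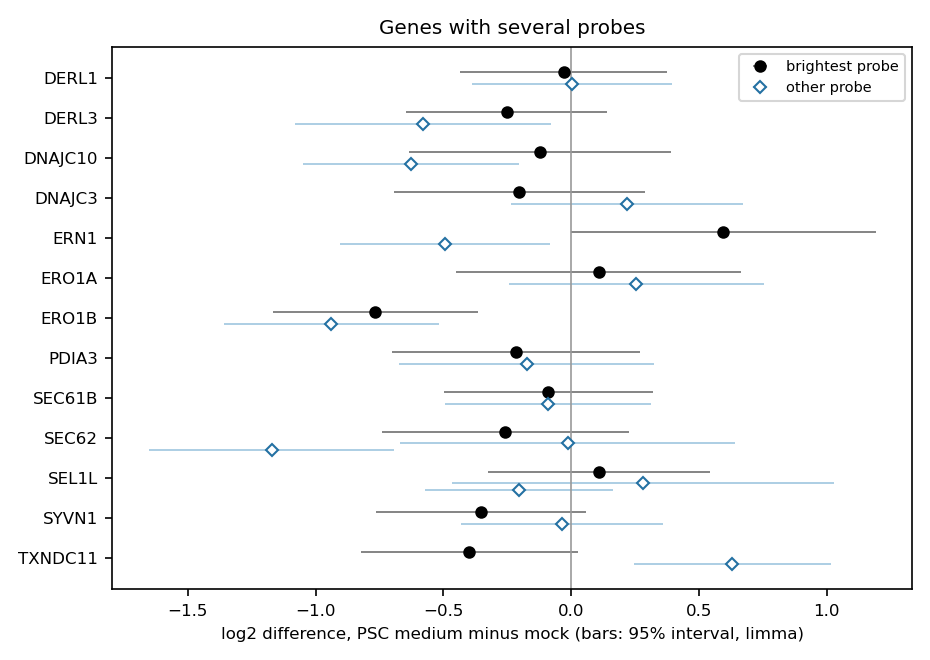
Log2 difference, PSC medium minus mock, of every probe of the 13 genes with more than 1, with 95% intervals from the limma fit of single probes (n = 2 arrays per group). Black circles are the brightest probes and open diamonds the others; both ERO1B probes lie left of 0, while ERN1 and TXNDC11 have a probe on either side.

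The genes with an ER stress element did not share a direction either. Of the 10 with ERSE or ERSE-II, 3 had a positive difference (PDIA6, CALR and HERPUD1) and 7 a negative one, with a median of -0.17. The 23 with a window and neither element had 10 positive and 13 negative differences and a median of -0.10. ERO1B and PDIA6, at the opposite ends of the 36, both hold an ERSE. HERPUD1 also holds the single CARE match among the 33 genes, at -176 to -169.

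**Figure D4:**
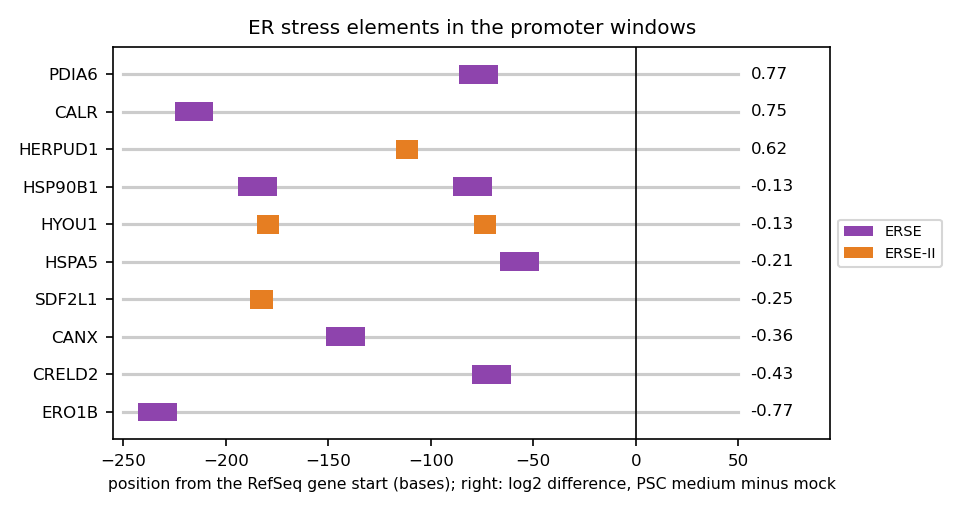
Positions of ERSE (purple) and ERSE-II (orange) matches in the promoter windows of 10 genes, in bases from the RefSeq gene start, ordered by the log2 difference (PSC medium minus mock) printed at the right. Elements lie between -243 and -48, and the genes that hold them run from 0.77 (PDIA6) to -0.77 (ERO1B).

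Other genes of the same pathway, listed by function with earlier results of these data known, numbered 89 measured. Of these, 1 was called higher (1.12%) and 0 lower, against 1.17% and 0.974% of all genes. Their median difference was -0.16, against -0.01 over all genes. At an adjusted p under 0.1 the calls were 3 higher and 9 lower of the 89, with 3.62% and 4.48% of all genes. At an unadjusted p under 0.05, 10 were higher and 18 lower, where 9.84% and 12.7% of all genes passed. Groups were apart for 24 higher and 38 lower, beside 24.5% and 29.0% of all genes. The gene called at an adjusted p under 0.05 was DDIT3, which encodes the stress-induced transcription factor CHOP. It had 17.84 and 17.34 with PSC medium, against 15.90 and 15.89 in mock (1.69 ± 0.21, adjusted p = 0.0288). XBP1 had 14.86 and 14.76 with PSC medium, against 14.07 and 13.98 in mock (0.79 ± 0.16, adjusted p = 0.0655). The array values of XBP1 do not separate spliced from unspliced mRNA. XBP1 was also the only gene among 73 of these with a window to hold an ERSE. Of the 13 sensors, transcription factors and other stress signalling genes in this list, 6 had a positive and 7 a negative difference. The other signalling genes are PPP1R15A, PPP1R15B, MBTPS1 and MBTPS2. At an adjusted p under 0.1, DDIT3, XBP1 and PPP1R15A (0.72 ± 0.18, adjusted p = 0.0924) were higher. MBTPS2 was lower at that threshold (-0.67 ± 0.16, adjusted p = 0.0862). The ER stress sensor genes ATF6 and EIF2AK3 had -0.17 ± 0.19 and -0.16 ± 0.19, with overlapping groups.

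The other sets had 0 calls at an adjusted p under 0.05. Of 19 further translocon, signal peptidase and oligosaccharyltransferase genes, 5 had a positive and 14 a negative difference, with a median of -0.28. Their smallest p-values were those of the signal peptidase subunit genes SPCS2 (-0.84 ± 0.17, adjusted p = 0.0691) and SPCS3 (-0.74 ± 0.19, adjusted p = 0.0972). Of 7 further chaperone and co-chaperone genes of the ER (Hsp40 and Hsp70 genes with SDF2 and CDNF), 6 were negative. These were led by SEC63, the J-domain partner of the translocon (-0.81 ± 0.17, adjusted p = 0.0735), and HSPA13 (-0.69 ± 0.16, adjusted p = 0.0834).

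Of 21 further ERAD genes, 12 were positive and 9 negative, with the smallest p for UBXN4, which tethers the extraction ATPase to the ER (-0.76 ± 0.16, adjusted p = 0.0694), and the ubiquitin-conjugating enzyme gene UBE2J1 (-0.71 ± 0.17, adjusted p = 0.089). Of 12 genes listed as calnexin cycle and lectins, with ERP29, ERP27 and MCFD2 among them, 6 were positive and 6 negative. The smallest p-values were those of UGGT2, a folding sensor that re-glucosylates glycoproteins (-0.78 ± 0.17, adjusted p = 0.0742), and the cargo receptor gene LMAN1 (-0.57 ± 0.21, adjusted p = 0.185). Of 17 further disulfide and proline isomerase genes, 8 were positive and 9 negative, with TMX3 at -0.89 ± 0.19 (adjusted p = 0.0742) and TMX4 at 0.63 ± 0.17 (adjusted p = 0.111).

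Whether single genes were called depended on the setting. With genes under the median level left out, 34 of the 36 stayed in (not ERN1 and DERL2). Of these, 4 were called higher (CALR, PDIA6, MANF and HERPUD1) and 2 lower (ERO1B and EDEM3), where 8.63% and 10.2% of the 9545 genes left were called. With 50 added before the logarithm the same 4 were higher and ERO1B lower, beside 4.32% and 5.59% of all genes. With a variance trend on intensity CALR and HERPUD1 were higher and ERO1B lower, beside 3.09% and 3.67% of all genes. In the other 9 alternatives that refit the genes, 0 were called. Of all genes, 0.592% were called there without normalization, 0.477% with median centring, 0.959% with cyclic loess, 0.487% with probes averaged and 0.44% with the replicate block. With an array left out the share was 0.0% or 0.0105% without a PSC medium array and 0.189% or 0.105% without a mock array. The sign of CALR, PDIA6, MANF, HERPUD1, ERO1B and EDEM3 was the same in all 12. With the variance trend, the replicate block and genes under the median level left out, each difference is the reported one by construction. The sign could not change in those settings. Over the 12, differences were 0.59 to 0.90 for CALR, 0.60 to 0.93 for PDIA6 and 0.52 to 0.69 for MANF. They were 0.52 to 0.76 for HERPUD1 and -0.85 to -0.68 for ERO1B. EDEM3 varied more, at -0.36 without PSC medium replicate 2 and -0.81 without PSC medium replicate 1.

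**Figure D5:**
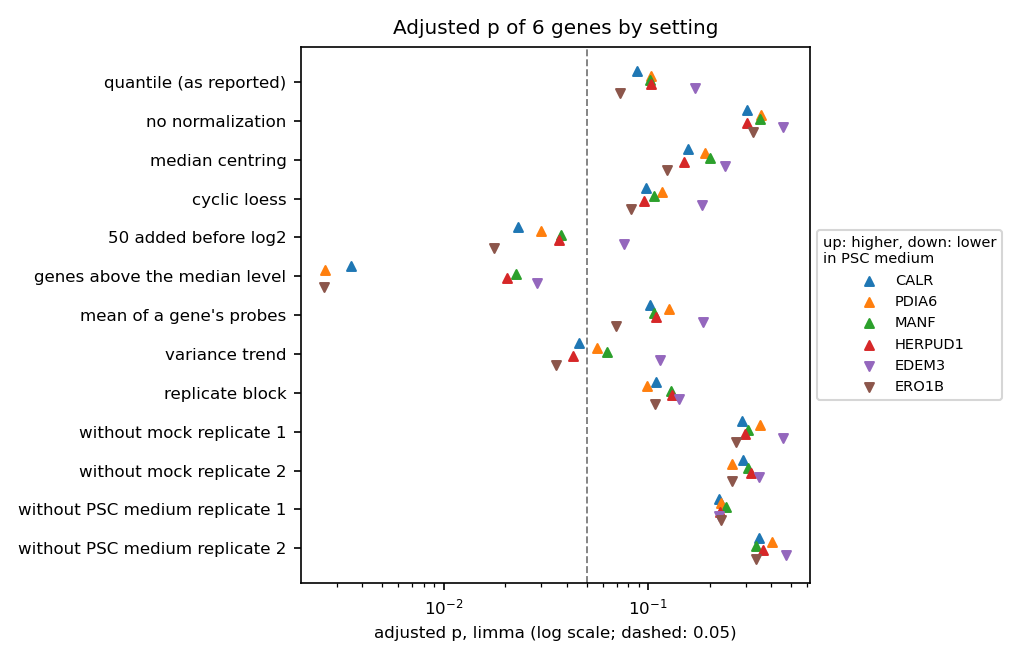
Adjusted p (limma, log axis) of the 6 genes called in any setting, under the reported quantile setting and 12 alternatives; the dashed line marks 0.05. Triangles up are genes higher and triangles down genes lower with PSC medium; points cross the line only with 50 added, above the median level and with the variance trend.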

How the data were processed

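The authors deposited whole-number intensities on a linear scale, some below 0, for 28264 probes on each of 4 single-colour arrays (Cy5 label, per the labels' protocols). Scanner, software and scaling are not given in the sources used here. Array medians differed by 0.325 on the log2 scale, so intensities were brought to common quantiles, values under 1 were set to 1, and log2 was taken. By the platform's annotation 25893 probes had 1 symbol, 0 several and 2371 none, and all named probes matched RefSeq (GRCh38.p14) by Entrez ID. The brightest probe stood for a gene, 19090 in all.

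The 2 groups were fitted over all genes with lmFit and eBayes of limma 3.58.1 (R 4.3.3, two-sided), with Benjamini-Hochberg adjustment. Every adjusted p is from limma. There were 2 residual and 3.97 prior degrees of freedom, and the number of arrays limits the precision. Levels are normalized log2 intensities, and levels of different probes are not comparable. The genes and lists were chosen with earlier results of these data known. Per-array values are given for the 3 genes of each role with the smallest p and the 3 brightest. Companions are named for calls at an adjusted p under 0.05 and the 2 smallest p of each set. HSPA5, HSP90B1, ATF6, EIF2AK3, PPP1R15A, MBTPS2 and single probes were named outside this rule, after their values were seen. Protein sequences were not used here. Alternatives covered normalization, low values, probe choice, variance model, threshold, replicate block and each array left out. Of the pathway genes listed, 2 are not reported here.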

Additional observations from a re-analysis of the deposited data

How the results depend on the processing

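Counts were also 0 higher and 0 lower without normalization, with median centring, cyclic loess, the mean of a gene's probes, every probe on its own and the replicate block. Each of these settings called fewer of all genes or probes than the reported one. A count of 0 there is thus no separate evidence of no change. With 50 added there were 4 higher and 1 lower, above the median level 4 and 2, with the variance trend 2 and 1, and at an adjusted p under 0.1, 1 and 1. Above the median level limma estimated no spread of variances between genes. All genes called numbered 409 as reported, 113 without normalization, 91 with median centring, 183 with cyclic loess, 1893 with 50 added, 1798 above the median level, 1291 with the trend, 93 with probes averaged and 0 to 36 with an array left out, which leaves 1 array in a group, assumed to vary like the other group. The split of all calls was 223 higher and 186 lower as reported, against 35 and 78 without normalization and 29 and 62 with median centring. The labels give same-numbered arrays a number and state no pairing. The correlation of their deviations was 0.0686. With the replicate block 0 of the 36 genes and 84 of all genes were called.

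The median difference of the 36 genes, -0.13, was -0.051 without normalization and -0.18 with median centring, where that of all genes was 0.03 and -0.10. It ranged from -0.15 to -0.077 with an array left out. Of the 36 genes, 25 kept their sign in every one of the 12 alternatives that held them. ERN1 and DERL2 were not in the fit above the median level. In that fit, with the variance trend and with the replicate block, a gene's difference is the reported one. Its sign could not change there. Without normalization the sign turned for DERL1 (0.026), SEC61A1 (0.036) and SEC61B (0.023), and with probes averaged for DNAJC3 (0.0075) and TXNDC11 (0.12). Leaving out an array gave differences of -0.26 to 0.0025 for HSP90B1, -0.27 to 0.0011 for HYOU1, -0.037 to 0.32 for SIL1, -0.33 to 0.089 for DNAJC10, -0.14 to 0.36 for ERO1A, -0.0079 to 0.22 for SEL1L, -0.11 to 0.051 for DERL1, -0.24 to 0.037 for SEC61A1 and -0.19 to 0.014 for SEC61B. None of these was called in any alternative, and the cause was not tested. In the reported setting the smallest difference called over all genes was 0.91 in size. ERO1B and PDIA6 (0.77) lay under it there, while both were called with 50 added and above the median level. The reported count of 0 therefore does not exclude changes of this size.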
